A study of Mus musculus with 12 samples.

Results

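The 10 genes Col1a1, Col1a2, Col3a1, Sparc, Dcn, Lum, Postn, Bglap, Fn1 and Thbs1 encode proteins of the collagen and connective tissue matrix, and they are 10 of the 22619 gene symbols measured in 12 Smart-seq2 libraries of mouse embryos and embryonic stem (ES) cells. They were chosen by name on the FPKM values of these same libraries, so their levels and differences are given as a description. Where the fit over all genes called any of them, the count stands beside the share of all genes called, and nothing is read from it. Smart-seq2 makes full-length cDNA from the polyadenylated RNA of very few cells, and FPKM counts fragments relative to the length of the gene and to the size of the library. Embryos of the C57BL/6 strain made up 3 groups: Dcaf11 knock out with the title word arrest (KOArrest, n = 3), Dcaf11 knock out without it (KOEmbryo, n = 3) and wild type (controlEmbryo, n = 2). The 129Sv ES cells had Dcaf11 knocked down (KDES, n = 2) or were wild type (controlES, n = 2), so embryos and ES cells differ in strain as well as in kind. The sources used here do not give the embryos' stage or sex, the cells per library, the deleted part of Dcaf11 or the method of the knock down. Nor do they say whether the libraries of a group are of different embryos or cultures, so each p-value covers no more than the library-to-library spread, and that spread may be technical.

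Fibrillar collagen is the main load-bearing protein of bone, skin and tendon, and type I collagen is a triple helix of the products of Col1a1 and Col1a2. Small leucine-rich proteoglycans such as decorin and lumican sit on the fibrils and set their spacing, while matricellular proteins such as SPARC, periostin and thrombospondin-1 act between matrix and cell. Fibronectin is the adhesive protein on which other matrix is assembled, and osteocalcin, the product of Bglap, is a bone matrix protein made by osteoblasts.

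Dcaf11, whose product recruits substrates to the ubiquitin ligase CUL4-DDB1, had 4.43, 0.422 and 6.02 FPKM in KOArrest and 3.99, 2.84 and 0.184 FPKM in KOEmbryo, against 2.82 and 14.3 FPKM in controlEmbryo. The knock out and wild-type embryo libraries thus overlapped in Dcaf11, and a level from outside a deleted part would check nothing; the libraries are named by their labels throughout. In ES cells both KDES libraries, at 1.69 and 1.83 FPKM, were below both controlES libraries, at 6.48 and 4.52 FPKM. Coverage per FPKM, which follows depth, was 0.373 to 0.659 in KOArrest, 0.585 to 1.32 in KOEmbryo, 1.22 to 2.01 in controlEmbryo, 0.566 to 0.943 in KDES and 0.907 to 1.08 in controlES. The library controlEmbryo.1 was the deepest of the 12 and yet had the fewest genes at 1 FPKM or more, 6573 against 8535 to 12061 in the others. As a check of the labelled material, the summed FPKM of 10 oocyte markers was 575 to 841 in KOArrest, 7843 to 11471 in KOEmbryo and 23088 to 34155 in controlEmbryo, but 1.68 to 2.64 in KDES and 2.26 in both controlES libraries. Most of each embryo sum was Omt2b, with 20739 FPKM in controlEmbryo.1. All 4 ES cell libraries had the 8 pluripotency markers above 0, but so had all 3 KOArrest libraries, so that count does not tell ES cells from embryos.

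Of the genes, Col1a2 was found in KOEmbryo, controlEmbryo and ES cells, and Bglap in KOEmbryo and controlEmbryo alone. Sparc was found in every library and was highest in ES cells. Because the genes differ in this way, the windows just upstream of these 3 are shown. Each is the 250 bases before the start of transcription in RefSeq on GRCm38.p6, written 5′ to 3′ on the gene's strand, with matches to 4 short motifs in capitals. The motifs were TATAAA, the TATA box; CCAAT, the CCAAT box; GGGCGG, the letters of a GC box; and TGTGGT, the core letters of the RUNX motif, which on the other strand reads ACCACA.
Col1a2 (chr6:4505368-4505617, plus strand): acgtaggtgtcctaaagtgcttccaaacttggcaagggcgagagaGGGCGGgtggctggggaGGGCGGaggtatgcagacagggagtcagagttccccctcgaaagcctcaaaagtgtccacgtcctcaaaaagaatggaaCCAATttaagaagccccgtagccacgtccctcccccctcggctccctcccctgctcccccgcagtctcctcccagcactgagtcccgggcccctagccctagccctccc
Bglap (chr3:88384467-88384716, minus strand): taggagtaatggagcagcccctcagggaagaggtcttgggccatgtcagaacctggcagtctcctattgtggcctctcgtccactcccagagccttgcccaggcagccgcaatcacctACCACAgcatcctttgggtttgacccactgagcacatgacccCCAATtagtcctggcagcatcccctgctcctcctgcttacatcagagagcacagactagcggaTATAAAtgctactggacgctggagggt
Sparc (chr11:55420081-55420330, minus strand): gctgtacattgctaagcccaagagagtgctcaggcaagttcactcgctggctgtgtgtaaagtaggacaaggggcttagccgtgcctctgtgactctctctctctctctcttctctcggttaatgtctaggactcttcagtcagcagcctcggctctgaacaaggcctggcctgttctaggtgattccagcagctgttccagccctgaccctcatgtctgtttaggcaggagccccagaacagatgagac
The Bglap window held TATAAA 27 bases before the start, CCAAT 90 bases before it and ACCACA 132 bases before it. The Col1a2 window held CCAAT 109 bases and GGGCGG 205 and 188 bases before the start, and no TATAAA. The Sparc window held none of the 4. Of 32851 windows of this length, 12.4% held TATAAA on either strand, 33.8% held CCAAT, 32.7% held GGGCGG and 14.0% held TGTGGT. These are matches of letters, and no binding was measured. Windows for 5 of the 10 genes were matched, and those of Col1a1, Dcn, Lum, Fn1 and Thbs1 were not used here.

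The fibrillar collagens come first. In the authors' mm9 coordinates Col1a1 spans chr11:94797584-94813170, Col1a2 chr6:4455697-4491543 and Col3a1 chr1:45368383-45406551, all on the plus strand, and none of the 10 genes overlaps another named gene. Col1a1, the alpha1 chain of type I collagen, had 0.245, 1.09 and 0.0513 FPKM in KOArrest, 19.4, 12.9 and 22.7 FPKM in KOEmbryo, and 4.10 and 14.7 FPKM in controlEmbryo. It had 36.8 and 30.6 FPKM in KDES, against 42.0 and 43.9 FPKM in controlES. Col1a1 was therefore near 0 in KOArrest alone, overlapped between the other embryo groups, and was highest in ES cells. Col1a2, the alpha2 chain of the same trimer, was listed at 0 in all 3 KOArrest libraries, with 22.9, 21.0 and 35.5 FPKM in KOEmbryo, and 6.85 and 20.8 FPKM in controlEmbryo. It had 9.68 and 7.86 FPKM in KDES, against 21.5 and 21.3 FPKM in controlES. Here the KOEmbryo libraries overlapped or exceeded the controlES libraries, whereas for Col1a1 they all lay below them. Col3a1, the chain of type III collagen in soft connective tissue, was also listed at 0 in all 3 KOArrest libraries, with 4.27, 5.20 and 7.94 FPKM in KOEmbryo, and 1.62 and 4.33 FPKM in controlEmbryo. It had 0.919 and 1.10 FPKM in KDES, against 3.23 and 2.63 FPKM in controlES, the lowest of the 3 collagens in each of the 4 ES cell libraries.

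The small leucine-rich proteoglycans Dcn (mm9 chr10:96942134-96980796) and Lum (chr10:97028135-97035337) lie next to each other on the plus strand. Dcn, which encodes decorin, was listed at 0 in all 3 KOArrest libraries, with 4.79, 3.94 and 7.09 FPKM in KOEmbryo, and 0.986 and 4.80 FPKM in controlEmbryo. It was listed at 0 in both KDES libraries, against 0.351 and 0 FPKM in controlES. Lum, which encodes lumican, was listed at 0 in all 3 KOArrest libraries, with 11.98, 11.3 and 14.9 FPKM in KOEmbryo, and 3.12 and 10.4 FPKM in controlEmbryo. It was listed at 0 in all 4 ES cell libraries. The pair was thus found in KOEmbryo and controlEmbryo libraries, and all but missing from ES cells that had Col1a1.

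Of the matricellular genes, Sparc (mm9 chr11:55208003-55233582, minus strand) encodes the collagen-binding protein osteonectin. It had 0.892, 0.870 and 0.655 FPKM in KOArrest, 19.5, 18.1 and 25.9 FPKM in KOEmbryo, and 7.24 and 17.7 FPKM in controlEmbryo. It had 128 and 126 FPKM in KDES, against 142 and 145 FPKM in controlES. Sparc was the only member above 0.5 FPKM in every library. Postn (chr3:54165029-54194963, plus strand), which encodes periostin, was listed at 0 in all 3 KOArrest libraries, with 2.85, 4.95 and 4.57 FPKM in KOEmbryo, and 0.452 and 5.58 FPKM in controlEmbryo. It had 0.494 and 0.729 FPKM in KDES, against 1.53 and 1.32 FPKM in controlES. The spread of Postn within controlEmbryo was larger than that within KOEmbryo. Thbs1 (chr2:117937658-117952869, plus strand) encodes thrombospondin-1, which can release active TGF-beta from its latent form. It was listed at 0 in all 3 KOArrest libraries, with 0.734, 1.03 and 1.93 FPKM in KOEmbryo, and 0.167 and 0.711 FPKM in controlEmbryo. It had 35.7 and 36.2 FPKM in KDES, against 71.3 and 70.3 FPKM in controlES, far above all embryo libraries.

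Bglap (mm9 chr3:88187417-88188386, minus strand) was listed at 0 in all 3 KOArrest libraries, with 9.74, 11.6 and 13.5 FPKM in KOEmbryo, and 2.49 and 4.64 FPKM in controlEmbryo. It was listed at 0 in all 4 ES cell libraries. Bglap has near-identical neighbours, Bglap2 and Bglap3, so reads may be shared among them. Bglap2 had 2.37, 0 and 0 FPKM in KOArrest, 5.09, 3.96 and 12.2 FPKM in KOEmbryo, and 2.01 and 3.61 FPKM in controlEmbryo. Bglap3 did not follow Bglap, at 3.33, 0 and 2.82 FPKM in KOArrest, 2.69, 0 and 0 FPKM in KOEmbryo, and 0 and 1.97 FPKM in controlEmbryo. In ES cells Bglap3 had 0 and 0.0966 FPKM in KDES, against 1.31 and 1.72 FPKM in controlES. Fn1 (chr1:71632097-71699745, minus strand) had 1.49, 0.281 and 0.923 FPKM in KOArrest, 0.556, 2.13 and 2.07 FPKM in KOEmbryo, and 0.236 and 0.702 FPKM in controlEmbryo. It had 182 and 198 FPKM in KDES, against 169 and 166 FPKM in controlES. The 3 embryo groups overlapped in Fn1, which was low in each of them, and Fn1 was the only member that was higher in both KDES libraries than in both controlES libraries.

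**Figure D1:**
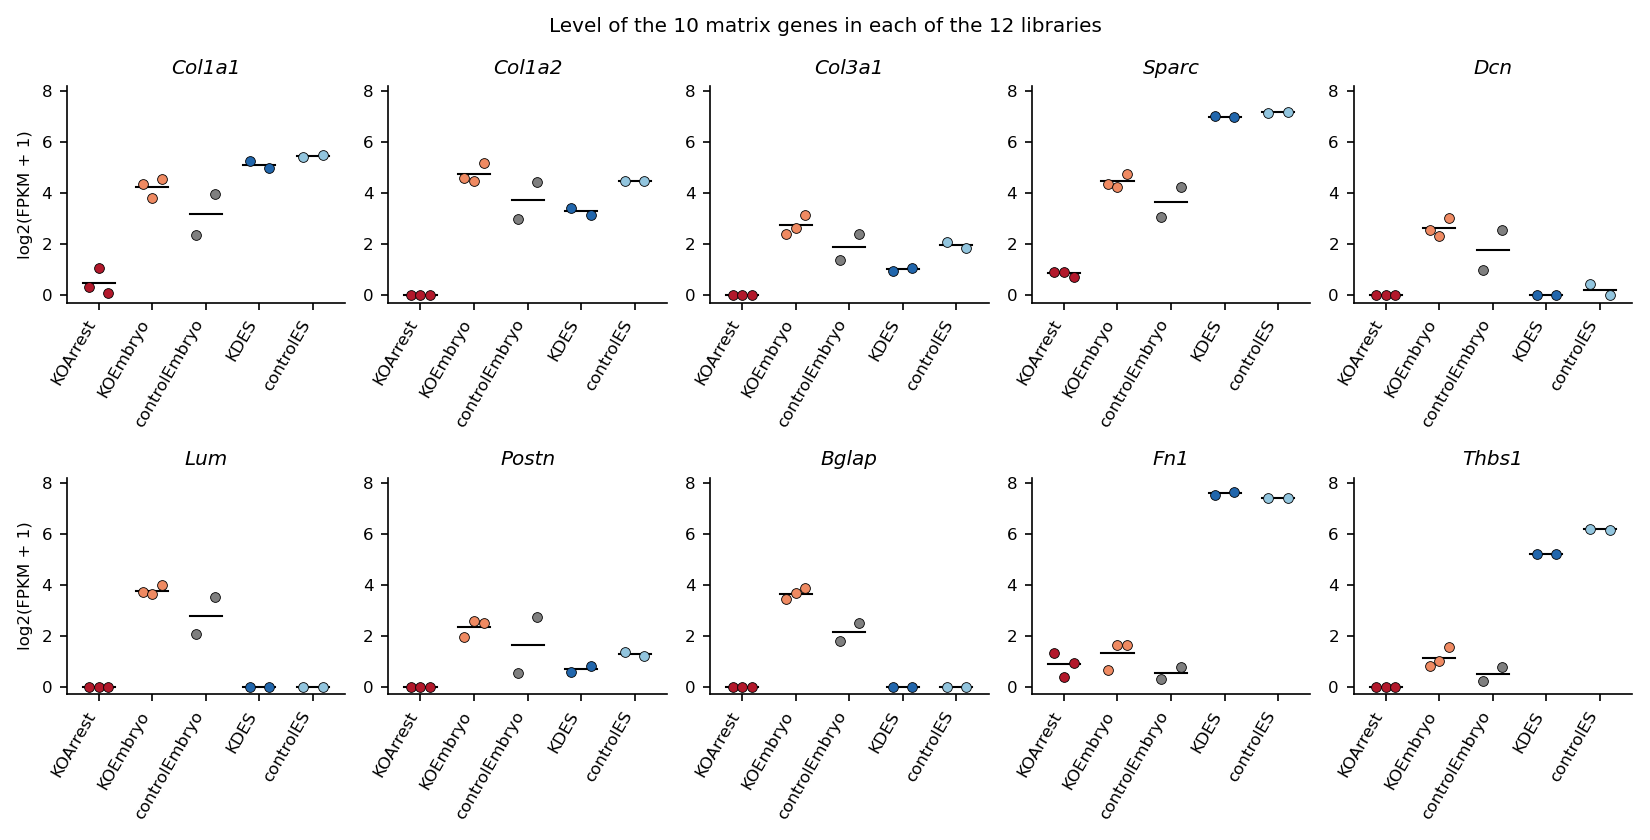
Level of the 10 matrix genes in each library on the log2(FPKM + 1) axis, in panels by gene, with a point per library and a line at the group mean. KOArrest lies at 0 or near it in every panel, Dcn, Lum and Bglap lie at or near 0 in KDES and controlES, and Fn1 and Thbs1 stand far higher in ES cells than in embryos.

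The plot of levels by library shows 2 different orders of the same genes. In KOEmbryo the order of mean FPKM was Col1a2, Sparc, Col1a1, Lum, Bglap, Col3a1, Dcn, Postn, Fn1 and Thbs1, at 26.5 ± 7.89, 21.2 ± 4.16, 18.3 ± 5.02, 12.7 ± 1.91, 11.6 ± 1.90, 5.80 ± 1.91, 5.27 ± 1.63, 4.12 ± 1.12, 1.59 ± 0.892 and 1.23 ± 0.624 FPKM (SD, n = 3). In controlEmbryo the first 5 came in the same order and Postn came before Col3a1 and Dcn, at 3.01 ± 3.62, 2.97 ± 1.92 and 2.89 ± 2.70 FPKM (SD, n = 2). The ranges of neighbours in the KOEmbryo order overlapped between libraries, except those of Bglap and Col3a1 and of Postn and Fn1. Within each KOEmbryo library, however, Col1a2, Sparc, Col1a1 and Lum kept that order, Bglap lay above Col3a1 and Postn above Fn1. The other neighbours did not keep their order in every library. In controlES the order was Fn1, Sparc, Thbs1, Col1a1, Col1a2, Col3a1, Postn and Dcn, with means of 167 ± 2.11, 143 ± 2.06, 70.8 ± 0.713, 43.0 ± 1.37, 21.4 ± 0.113, 2.93 ± 0.430, 1.43 ± 0.148 and 0.175 ± 0.248 FPKM (SD, n = 2). The first 7 kept that order in KDES, where all neighbours were apart in both libraries except Thbs1 and Col1a1, at 36.0 ± 0.316 and 33.7 ± 4.35 FPKM (SD, n = 2). All of these values are per length of gene, so they can be set beside each other.

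Some ratios among the genes varied little over the KOEmbryo and controlEmbryo libraries and others varied widely, and all 9 ratios to Col1a1 lay outside their range in ES cells. Over the 5 KOEmbryo and controlEmbryo libraries the ratio of Col1a2 to Col1a1 FPKM had a lowest, median and highest value of 1.18, 1.56 and 1.67, and over the 4 ES cell libraries of 0.257, 0.375 and 0.512. The ratio of Lum to Col1a1 ran from 0.618 to 0.876 in those 5 embryo libraries and was 0 in ES cells. The ratio of Dcn to Col1a1 ran from 0.240 to 0.326 there, but that of Postn from 0.110 to 0.385 and that of Bglap from 0.315 to 0.899. The ratio of Fn1 to Col1a1 ran from 0.0287 to 0.166 in the 5 embryo libraries, against 3.77 to 6.48 in ES cells. The 10 genes summed to 2.63, 2.24 and 1.63 FPKM in KOArrest, made of Col1a1, Sparc and Fn1 alone. The sums in KOEmbryo were 96.8, 92.1 and 136 FPKM, of which Col1a2 made 23.7%, 22.8% and 26.1%. Even controlEmbryo.1, whose 10 genes summed to 27.3 FPKM against 84.4 FPKM in controlEmbryo.2, held Col1a2 at 25.1% of its sum, and controlEmbryo.2 held it at 24.7%. Postn, by contrast, made 1.66% in controlEmbryo.1 and 6.61% in controlEmbryo.2. In ES cells Fn1 alone made 46.3% and 49.5% of the sum in KDES, against 37.4% and 36.8% in controlES.

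**Figure D2:**
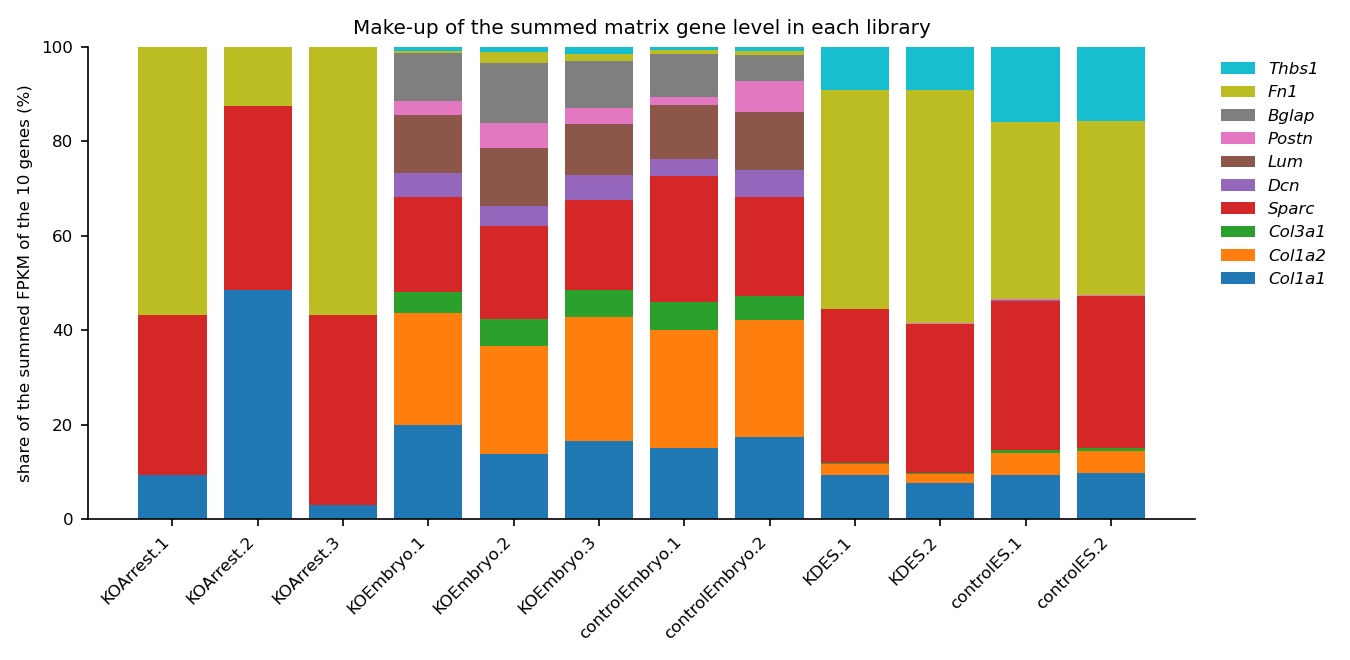
Share of the summed FPKM of the 10 genes (vertical axis, percent) taken by each gene in each library, as stacked bars. The 3 KOEmbryo and 2 controlEmbryo bars are led by Col1a2 and Sparc, with Postn at 1.66% in controlEmbryo.1 and 6.61% in controlEmbryo.2, while Fn1, Sparc and Thbs1 fill most of the KDES and controlES bars; the KOArrest bars rest on sums of 1.63 to 2.63 FPKM.

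KOArrest embryos stood apart from both other embryo groups in these genes. Of the 10, 7 were listed at 0 in every KOArrest library, namely Col1a2, Col3a1, Dcn, Lum, Postn, Bglap and Thbs1. Col1a1 averaged 0.462 ± 0.553 FPKM in KOArrest and 18.3 ± 5.02 FPKM in KOEmbryo (SD, n = 3 each), a log2 fold change of -3.75 ± 0.61 (SE) on the log2(FPKM + 1) scale. Sparc averaged 0.806 ± 0.131 FPKM in KOArrest and 21.2 ± 4.16 FPKM in KOEmbryo (SD, n = 3 each), a log2 fold change of -3.61 ± 0.52 (SE) on the same scale. Fn1 differed by -0.43 ± 0.51 (SE), less than its error. Against controlEmbryo the log2 fold changes in KOArrest were -2.68 ± 0.68 for Col1a1, -2.78 ± 0.58 for Sparc and 0.34 ± 0.57 for Fn1 (SE). Between KOArrest and KOEmbryo, 9 of the 10 had every KOArrest library below every KOEmbryo library, which held for 17.7% of the 11795 genes tested in embryos. A gene was called where limma gave a Benjamini-Hochberg adjusted p under 0.05 over all genes tested: 8 of the 10 were called lower in KOArrest than in KOEmbryo, with 3.65% of all genes called lower and 4.93% called higher. Against controlEmbryo 6 of the 10 were called lower, with 8.87% of all genes called lower and 16.4% called higher. Because the genes were chosen on these values, nothing is read from these counts, and the 3 embryo comparisons share libraries. At the depth of the 3 KOArrest libraries, Col1a2 at its mean KOEmbryo level would have had a coverage of 9.88, 13.9 and 17.5, and its listed coverage was 0 in each. For Postn, also at 0, that coverage would have been 1.54, 2.16 and 2.72, and for Thbs1 only 0.459, 0.644 and 0.811. The part of depth in the values listed at 0 was not tested. In bulk libraries like these, fewer cells of a type and less RNA per cell cannot be told apart. Whether the RNA of the matrix genes came from the embryos' own cells was not tested.

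Markers of neutrophils, and some markers of red cells and bone, moved with the matrix genes across the embryo libraries. The summed FPKM of 10 neutrophil markers was 0 to 0.477 in KOArrest, 230 to 354 in KOEmbryo and 66.9 to 135 in controlEmbryo, and no more than 0.509 in ES cells. Of the 7 neutrophil markers tested, 6 fell in KOArrest against KOEmbryo (S100a8, S100a9, Ngp, Lcn2, Retnlg and Chi3l3), with 3.65% of all genes called lower. S100a9, a calcium-binding protein abundant in neutrophils, was listed at 0 in all 3 KOArrest libraries, with 157, 159 and 245 FPKM in KOEmbryo, and 38.1 and 108 FPKM in controlEmbryo. Hbb-bs, an adult beta-globin of red cells, was listed at 0 in KOArrest, with 13.0, 15.8 and 29.8 FPKM in KOEmbryo, and 5.14 and 21.7 FPKM in controlEmbryo. It was 1 of 2 red cell markers, with Hbb-b2, that fell in KOArrest against KOEmbryo among 4 tested. Hba-a2, an adult alpha-globin, overlapped, at 9.31, 0 and 0 FPKM in KOArrest and 9.54, 0 and 6.08 FPKM in KOEmbryo. The 9 measured red cell markers summed to 0.437 to 10.1 FPKM in KOArrest, 27.1 to 58.3 FPKM in KOEmbryo and 19.8 to 88.2 FPKM in controlEmbryo. Ibsp, the bone sialoprotein of osteoblasts, was listed at 0 in KOArrest, with 6.45, 3.77 and 7.96 FPKM in KOEmbryo, and 1.69 and 5.16 FPKM in controlEmbryo. It was the 1 of 8 tested bone markers that fell in KOArrest against KOEmbryo. Spp1 overlapped, at 9.68, 10.3 and 12.2 FPKM in KOArrest and 8.46, 38.9 and 52.0 FPKM in KOEmbryo. S100a9, Hbb-bs and Ibsp were listed at 0 in the 4 ES cell libraries. The 11 bone markers summed to 14.3 to 16.0 FPKM in KOArrest, 31.9 to 86.6 FPKM in KOEmbryo and 59.2 to 65.8 FPKM in controlEmbryo. Of the 11 bone markers, 4 to 6 were above 0 in KOArrest libraries, with Ibsp, Dmp1, Mepe and Sost at 0 in all 3, against 10 or 11 in KOEmbryo and controlEmbryo. Of 15 fibroblast markers, 2 or 3 were above 0 in KOArrest libraries, 10 to 13 in KOEmbryo and 9 to 11 in controlEmbryo. Their summed FPKM did not separate the groups, at 32.4 to 44.5 in KOArrest, 29.2 to 46.0 in KOEmbryo and 26.3 to 52.9 in controlEmbryo. Of the KOArrest sums of 37.4, 32.4 and 44.5 FPKM, the microfibril gene Mfap5 made 34.4, 31.4 and 44.3 FPKM. The 6 neutrophil markers that fell, Hbb-b2, Hbb-bs and Ibsp were all at 0 in every KOArrest library. They passed the filter of 1 FPKM in at least 2 embryo libraries through the other groups alone. A difference was thus built into being tested, and their calls support nothing. The part of these markers in the levels of the matrix genes was not tested.

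**Figure D3:**
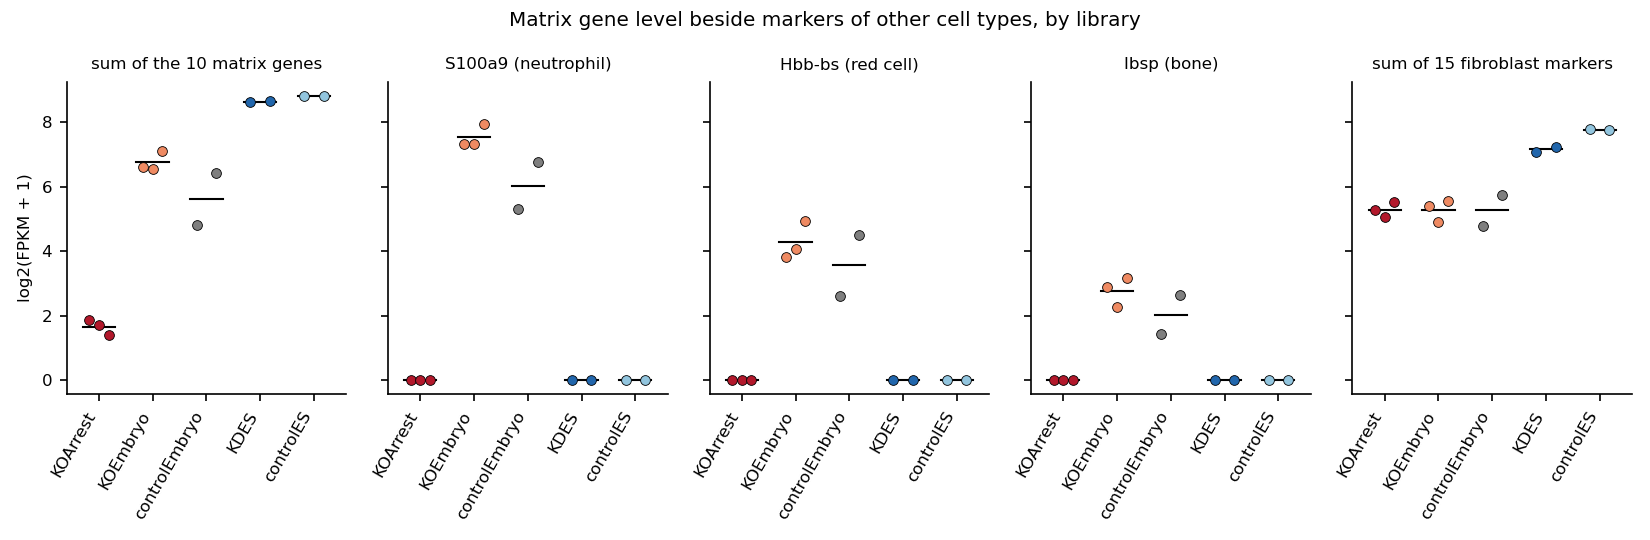
Summed level of the 10 matrix genes beside S100a9, Hbb-bs, Ibsp and the sum of 15 fibroblast markers in each library, on the log2(FPKM + 1) axis, with a point per library and a line at the group mean. S100a9, Hbb-bs and Ibsp lie at 0 in KOArrest, KDES and controlES, while the fibroblast sum overlaps among the embryo groups and is higher in ES cells.

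Other genes of the matrix were read from 9 lists of 223 genes that leave out the 10, and 104 of them passed the filter of 1 FPKM in at least 2 embryo libraries. Against KOEmbryo, 2 of the 104 rose in KOArrest and 7 fell, 8.65% of them. Of all genes, 4.93% were called higher and 3.65% lower. With both directions counted, the lists thus held about the same share of called genes as all genes did. The median log2 fold change over the 104 was -0.41, against 0.07 over all genes tested. The genes called are named below as a description. None of the 8 other fibril-forming collagens, such as the chains of type V and type XI collagen, passed the filter in embryos. Among the proteoglycans 1 of 8 tested fell, Bgn, which encodes biglycan, listed at 0 in all 3 KOArrest libraries and at 5.30 ± 1.37 FPKM in KOEmbryo (SD, n = 3; limma adjusted p = 0.0195). Among the proteases and inhibitors 4 of 16 fell and 1 rose. Mmp13, the collagenase of bone and cartilage, was listed at 0 in all 3 KOArrest libraries and at 8.98 ± 2.41 FPKM in KOEmbryo (SD, n = 3; limma adjusted p = 0.00979). Mmp8, the neutrophil collagenase, averaged 2.64 ± 0.813 FPKM in KOEmbryo (SD, n = 3), with 2 KOArrest libraries at 0 (limma adjusted p = 0.0345). Timp3, an inhibitor of matrix metalloproteases, was listed at 0 in KOArrest and at 3.44 ± 0.397 FPKM in KOEmbryo (SD, n = 3; limma adjusted p = 0.0284). Mmp19 fell as well, to 0.0822 ± 0.121 FPKM in KOArrest, against 4.31 ± 1.33 FPKM in KOEmbryo (SD, n = 3 each; limma adjusted p = 0.0485). Ctsl, the lysosomal protease cathepsin L, rose to 793 ± 243 FPKM in KOArrest, against 296 ± 49.3 FPKM in KOEmbryo (SD, n = 3 each), a log2 fold change of 1.38 ± 0.36 (SE, limma adjusted p = 0.0406). Bgn, Mmp13, Timp3 and Mgp were at 0 in all KOArrest libraries, and Mmp8 and Mmp19 were under 1 FPKM in each. All of these passed the filter through the other embryo groups alone, so a difference was built into being tested, and their calls support nothing.

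Among the elastic fibre and matricellular genes Mgp, the matrix Gla protein that holds back calcification, was the 1 of 14 tested that fell. It was listed at 0 in all 3 KOArrest libraries and had 7.14, 7.84 and 4.04 FPKM in KOEmbryo (limma adjusted p = 0.0171). Among the biosynthesis genes 1 of 21 rose, Fkbp10, a prolyl isomerase that assists procollagen folding, at 5.27 ± 1.15 FPKM in KOArrest and 0.245 ± 0.424 FPKM in KOEmbryo (SD, n = 3 each; limma adjusted p = 0.0185). Fkbp10 passed the filter through KOArrest alone, so its call supports nothing either. P4hb, the beta subunit of collagen prolyl hydroxylase, had 79.2 ± 9.46 FPKM in KOArrest and 81.3 ± 21.7 FPKM in KOEmbryo (SD, n = 3 each), and was not called. Among the regulators 1 of 18 fell, Yap1, a co-activator of the Hippo pathway, at 21.8 ± 10.5 FPKM in KOArrest and 65.2 ± 2.38 FPKM in KOEmbryo (SD, n = 3 each; limma adjusted p = 0.0345). None of the 16 receptors, 7 basement membrane genes and 4 other collagens tested was called by limma, though 5 of the receptors, 1 of the basement membrane genes and 0 of those collagens had an unadjusted p under 0.05. This count of 9 genes moved with single libraries: it was 1 without KOEmbryo.1 or without KOEmbryo.2, 4 without KOEmbryo.3, and 5, 2 and 3 without KOArrest.1, KOArrest.2 and KOArrest.3. It was 3 with the replicate number as a block.

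Against controlEmbryo, 6 of the 104 other matrix genes rose in KOArrest and 11 fell, 16.3% of them, with 16.4% of all genes called higher and 8.87% lower, so the lists held no larger share of called genes than all genes did. The median log2 fold change was -0.13, against 0.45 over all genes tested. Among the genes that fell were Tgfb2, a ligand of the TGF-beta pathway that drives matrix genes, and Mmp2, a gelatinase. Tgfb2 had 8.91 ± 2.62 FPKM in KOArrest (SD, n = 3) and 103 ± 56.6 FPKM in controlEmbryo (SD, n = 2), a log2 fold change of -3.31 ± 0.49 (SE, limma adjusted p = 0.00132). Mmp2 had 0, 0.665 and 0 FPKM in KOArrest and 7.15 and 12.4 FPKM in controlEmbryo (limma adjusted p = 0.00449). Smad3, a transcription factor of the same pathway, fell by 2.72 ± 0.68 on the log2 scale (SE, limma adjusted p = 0.0161). Cd36 and Itgb3, receptors for thrombospondin and for fibronectin and its relatives, fell by 3.20 ± 0.79 and 2.32 ± 0.70 on the log2 scale (SE, limma adjusted p = 0.015 and 0.0354). Nid2, a linker of basement membranes, Spp1, the matricellular protein osteopontin, and Yap1 fell too. Col4a3, Mmp13 and Mgp also fell, but they were listed at 0 in all 3 KOArrest libraries and passed the filter through the other groups alone. So did Mmp2 and Nid2, under 1 FPKM in each KOArrest library, and these calls support nothing. Cbfb, Tead4, Ctsl, Itgb5, Fkbp10 and P4hb rose. Fkbp10 passed the filter through KOArrest alone. Tead4, at 0.329 and 0.979 FPKM in controlEmbryo, passed it through the knock out groups alone, so both calls support nothing. Itgb3, at 0.655, 1.56 and 0.0483 FPKM in KOArrest, also needed other groups to pass, as did Itgb5, at 0.745 and 4.72 FPKM in controlEmbryo. Cbfb, the partner of RUNX factors, had 41.5 ± 7.35 FPKM in KOArrest (SD, n = 3) and 4.13 ± 4.36 FPKM in controlEmbryo (SD, n = 2; limma adjusted p = 0.00357). The count of 17 was 20 without controlEmbryo.1, 10 without KOArrest.2, 9 without KOArrest.3 and 9 with the replicate block.

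Mean levels of the 10 genes were higher in KOEmbryo than in controlEmbryo, by amounts that moved with single controlEmbryo libraries and with the scaling. The sums were 96.8, 92.1 and 136 FPKM in KOEmbryo, against 27.3 and 84.4 FPKM in controlEmbryo. Bglap was at 11.6 ± 1.90 FPKM in KOEmbryo (SD, n = 3) and 3.56 ± 1.52 FPKM in controlEmbryo (SD, n = 2), a log2 fold change of 1.50 ± 0.59 (SE). The other 9 had log2 fold changes of 0.62 to 1.07 with errors of 0.47 to 0.69, against a median of 0.31 over all genes tested. Of all genes, 4.86% were called higher in KOEmbryo and 1.50% lower, and 0 of the 10 were called, a count from which nothing is read. Without controlEmbryo.1 the log2 fold changes of the 10 were smaller, at 0.26 for Col1a1, 0.30 for Col1a2, 0.08 for Dcn and 1.15 for Bglap, and that of Postn was below 0, at -0.39. Without controlEmbryo.2 they were larger, at 1.89 for Col1a1, 1.77 for Col1a2, 1.63 for Dcn, 1.84 for Bglap and 1.79 for Postn. With median-of-ratios scaling they were 0.46 for Col1a1, 0.39 for Col1a2, 0.18 for Sparc and 0.93 for Bglap. S100a9 moved with them, at 157 to 245 FPKM in KOEmbryo and 38.1 and 108 FPKM in controlEmbryo, and its part was not tested. Of the 104 other matrix genes 3 rose and 1 fell, with a median of 0.29 against 0.31 over all genes tested. Cbfb rose by 3.21 ± 0.61 (SE, limma adjusted p = 0.018) and Ctsl by 1.55 ± 0.40 (SE, limma adjusted p = 0.0482). Tll1, a procollagen C-proteinase of the tolloid family, rose by 2.00 ± 0.52 (SE, limma adjusted p = 0.0492). It passed the filter through KOEmbryo alone, so its call supports nothing. Tgfb2 fell by 1.92 ± 0.49 on the log2 scale (SE, limma adjusted p = 0.0465). These 4 calls became 0 without KOEmbryo.1, without KOEmbryo.2, without KOEmbryo.3 or with the replicate block, and 7 without controlEmbryo.2, of which 1 was among the 4.

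In ES cells the knock down libraries had lower levels of most matrix genes that were present. Col1a2 was 2.44-fold lower in KDES, at 8.77 ± 1.29 FPKM in KDES and 21.4 ± 0.113 FPKM in controlES (SD, n = 2 each), a log2 fold change of -1.20 ± 0.14 (SE). Thbs1 was 1.97-fold lower, at 36.0 ± 0.316 FPKM in KDES and 70.8 ± 0.713 FPKM in controlES (SD, n = 2 each), a log2 fold change of -0.96 ± 0.08 (SE). Col3a1 differed by -0.96 ± 0.20, Postn by -0.59 ± 0.21, Col1a1 by -0.35 ± 0.12 and Sparc by -0.18 ± 0.07 on the log2 scale (SE). Fn1 differed the other way, by 0.18 ± 0.07 (SE). The 2 chains of type I collagen thus differed unequally: the ratio of Col1a2 to Col1a1 FPKM was 0.263 and 0.257 in KDES, against 0.512 and 0.486 in controlES. Of the 7 members that passed the filter, 6 had both KDES libraries below both controlES libraries, as had 37.1% of the 12264 genes tested. Col1a2 and Thbs1 were called lower, with 3.64% of all genes called lower and 2.59% called higher, and nothing is read from that count. Dcn, Lum and Bglap did not pass the filter in ES cells.

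Of the other matrix genes in ES cells, 20 of 132 tested fell in KDES and 1 rose, 15.9% of them, with 3.64% of all genes called lower and 2.59% higher. The median log2 fold change over the 132 was -0.37, against -0.09 over all genes tested. Mmp14, a membrane-bound collagenase, had 2.45 and 2.55 FPKM in KDES, against 18.3 and 16.2 FPKM in controlES, a log2 fold change of -2.38 ± 0.14 (SE, limma adjusted p = 0.0151). Timp2, which binds Mmp14 at the cell surface, had 7.22 ± 0.360 FPKM in KDES and 21.7 ± 0.257 FPKM in controlES (SD, n = 2 each), and fell by 1.47 ± 0.11 on the log2 scale (SE, limma adjusted p = 0.0237). Timp3, another inhibitor of these proteases, had 32.2 and 30.6 FPKM in KDES, against 57.6 and 53.5 FPKM in controlES, and fell too. Wwtr1 and Tead4, the Hippo pathway co-activator TAZ and one of its DNA-binding partners, fell by 1.46 ± 0.14 and 1.23 ± 0.13 on the log2 scale (SE, limma adjusted p = 0.030 and 0.0314), 2 of 22 regulators. Of 23 biosynthesis genes 4 fell: Lox and Loxl1, which cross-link collagen and elastin, Serpinh1, the collagen chaperone HSP47, and Crtap, a subunit of the prolyl 3-hydroxylase complex. Lox had 33.3 and 34.5 FPKM in KDES, against 66.7 and 64.7 FPKM in controlES. Of the proteoglycans 1 of 9 fell, Bgn, by 1.14 ± 0.16 on the log2 scale (SE, limma adjusted p = 0.0405).

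Among 17 receptors 3 fell in KDES, the hyaluronan receptor Cd44, the syndecan Sdc1 and Itga5, the alpha chain of a fibronectin receptor, whose levels were 4.19 ± 0.102 FPKM in KDES and 9.25 ± 0.709 FPKM in controlES (SD, n = 2 each; limma adjusted p = 0.0405). Fn1 itself, its ligand, was not lower. Of 13 basement membrane genes 2 fell, the laminin chains Lama5 and Lamc1, while Nid2, at 84.9 ± 1.35 FPKM in KDES and 85.7 ± 3.94 FPKM in controlES (SD, n = 2 each), was not called. Among 22 elastic fibre and matricellular genes Fbln2, Tnc and Cyr61 fell and Smoc1, a relative of Sparc, rose to 10.2 ± 0.834 FPKM in KDES, against 3.45 ± 0.356 FPKM in controlES (SD, n = 2 each; limma adjusted p = 0.0314). Of the other fibril-forming collagens 0 of 3 were called by limma and 1 had an unadjusted p under 0.05, and Col5a1 had 5.51 and 6.34 FPKM in KDES, against 11.5 and 9.85 FPKM in controlES (limma adjusted p = 0.0622). Col12a1, a collagen that lies on the surface of fibrils, fell by 0.89 ± 0.15 on the log2 scale (SE, limma adjusted p = 0.0485), 1 of 7 other collagens. The summed FPKM of the fibroblast markers was 135 and 149 in KDES, against 220 and 214 in controlES. Most of each sum was Vim, with 114 and 123 FPKM in KDES, against 173 and 164 FPKM in controlES. Vim was the 1 of 10 tested fibroblast markers that was called. The median log2 fold change over the 10 was -0.68, against -0.09 over all genes tested. Thy1 overlapped, at 4.17 and 5.66 FPKM in KDES and 5.04 and 5.26 FPKM in controlES. The part of the fibroblast markers in the result was not tested. KDES.1 stood apart in several genes, such as Spp1, with 2.78 FPKM against 437 FPKM in KDES.2 and 376 and 407 FPKM in controlES. Esrrb had 28.6 FPKM in KDES.1, against 244 FPKM in KDES.2 and 255 and 253 FPKM in controlES. Yap1 had 42.2 FPKM in KDES.1, against 8.97 FPKM in KDES.2 and 12.1 and 11.6 FPKM in controlES. The count of 21 was 9 without KDES.1, 12 without KDES.2, and 0 without controlES.1, without controlES.2 or with the replicate block, and Col1a2 and Thbs1 were not called in the last 3 either.

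**Figure D4:**
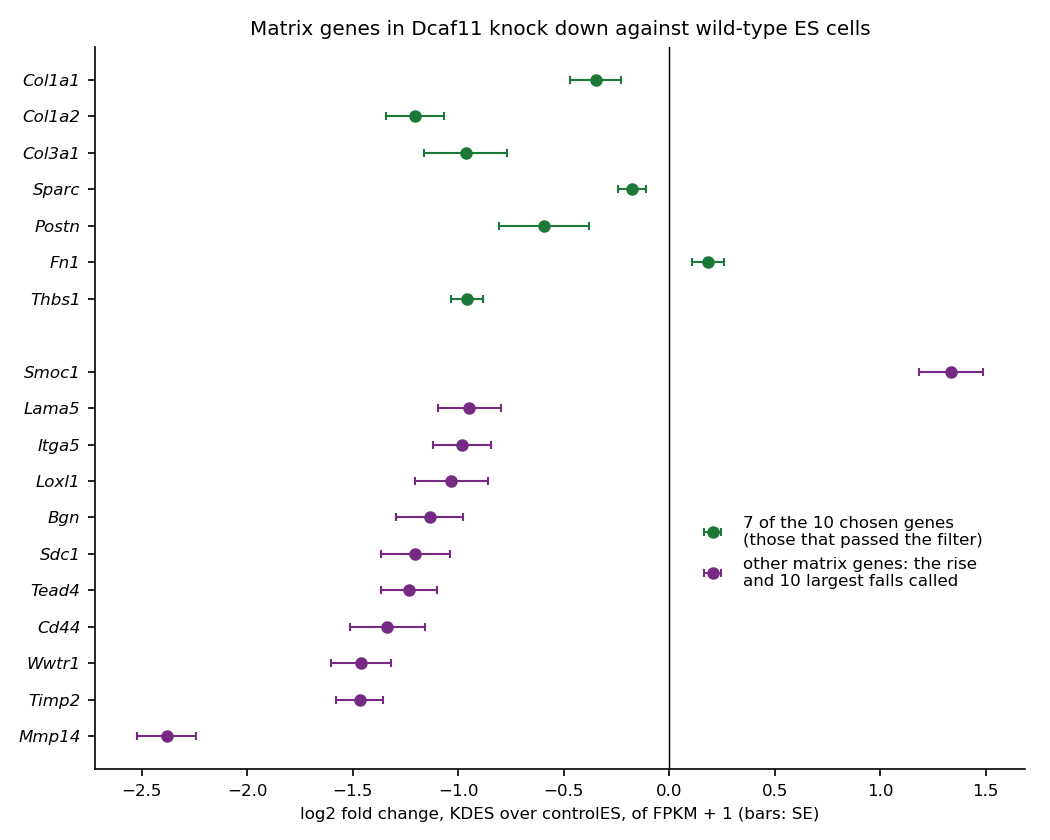
Log2 fold change of FPKM + 1 in KDES over controlES (horizontal axis, bars show the SE) for the 7 matrix genes that passed the filter and for the other matrix genes with the largest called differences. Fn1 and Smoc1 lie above 0, and Mmp14 has the lowest value, -2.38.

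Set against controlES, controlEmbryo libraries had Dcn, Lum and Bglap at higher levels and Fn1, Thbs1, Sparc and Col1a1 at lower ones. Fn1 was 356-fold lower, at 0.469 ± 0.329 FPKM in controlEmbryo and 167 ± 2.11 FPKM in controlES, and Thbs1 was 161-fold lower, at 0.439 ± 0.385 FPKM in controlEmbryo and 70.8 ± 0.713 FPKM in controlES (SD, n = 2 each). Sparc was 11.5-fold lower by the means, at 7.24 and 17.7 FPKM in controlEmbryo, and Col1a1 4.57-fold lower, at 4.10 and 14.7 FPKM in controlEmbryo. The log2 fold change of Sparc was -3.54, and it was -2.95 without controlEmbryo.1 and -4.13 without controlEmbryo.2. That of Col1a1 was -2.30, and it was -1.48 without controlEmbryo.1 and -3.11 without controlEmbryo.2. Col1a2, Col3a1 and Postn had log2 fold changes of -0.78 ± 0.49, -0.07 ± 0.41 and 0.35 ± 0.57 (SE). Of the 10, 3 were called higher, with 12.6% of 14447 genes called higher, and 4 lower, with 40.8% called lower. Nothing is read from these counts, and the 3 called higher, Dcn, Lum and Bglap, passed the filter through the embryo libraries alone. Of 160 other matrix genes tested 17 rose in controlEmbryo and 90 fell, with a median log2 fold change of -1.59 against -1.01 over all genes tested. Basement membrane genes fell in 13 of 14, Nid1 to 1.23 ± 1.35 FPKM in controlEmbryo, against 73.8 ± 0.781 FPKM in controlES (SD, n = 2 each; limma adjusted p = 0.000402), and Col4a3 rose. All 3 of the tested other fibril-forming collagens fell, though none of them passed the filter in embryos, so those calls support nothing. Of 26 biosynthesis genes 14 fell, Lox by 5.58 ± 0.35 on the log2 scale (SE, limma adjusted p = 4.22e-06). Lox was at 0.198 and 0.617 FPKM in controlEmbryo. Like other genes of these lists under 1 FPKM in both controlEmbryo libraries, it passed the filter through other groups alone. The calls of such genes support nothing. Mmp13 and Mgp were listed at 0 in controlES and rose with Dcn, Lum and Bglap, at 1.95 and 7.71 FPKM and at 1.65 and 6.35 FPKM in controlEmbryo (limma adjusted p = 0.00185 and 0.00284). Neutrophil markers rose in the same contrast, 5 of 7 tested, as did 5 of 8 bone markers, and their part was not tested. Like Mmp13, Mgp and Col4a3, the markers that rose were under 1 FPKM in all ES cell libraries. They passed the filter through embryo libraries alone, so their calls support nothing. Strain and material cannot be told apart here.

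The genes whose log2(FPKM + 1) was most like that of a given pattern over the 12 libraries were found by Pearson's r, given as a description, since the libraries share groups and depth. Most like the mean of Col1a1, Col1a2 and Col3a1 were Igfbp5, Harbi1, E2f1, Zfp513 and Rnf220, with r of 0.966, 0.963, 0.944, 0.943 and 0.940. Most like Sparc were Tanc1, Xist, Wdr82, Timp3 and Vim, with r of 0.964 to 0.968. Lum was added to these patterns after its values were seen, and most like it were Lyz2, Mmp13, Hbb-b2, Ngp and S100a9, with r of 0.995 to 0.999. Lyz2, a lysozyme of neutrophils and macrophages, had 26.9, 23.8 and 35.9 FPKM in KOEmbryo, and 6.75 and 21.5 FPKM in controlEmbryo, and was listed at 0 in the KOArrest and ES cell libraries. Among the 10 themselves Lum had r of 0.989 with Bglap and 0.986 with Dcn, but 0.210 with Col1a1 and -0.02 with Sparc.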

How the data were processed

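RNA of 8 embryo and 4 ES cell libraries was read from tables in which the authors deposited, per gene, FPKM, TPM and a coverage signal. The submitters' processing notes list STAR (0.6.0), StringTie, DESeq2 and the build mm9 without the role of each. FPKM was summed per symbol (22619 symbols); unnamed rows, 0.549% to 1.19% of FPKM, were left out. The deposited coverage per FPKM gave relative depth; read numbers are unknown, so no counting interval is given. log2(FPKM + 1) was fitted with limma 3.58.1 in R 4.3.3 (8 embryo libraries, 4 ES cell libraries, or all 12 for controlEmbryo over controlES), for genes at 1 FPKM or more in at least 2 libraries. The pseudocount of 1 understates changes of low genes, and a gene was called at an adjusted p under 0.05. The script was tested on simulated data. The 10 genes, the 9 matrix lists and the 10 marker lists were chosen with earlier results of these data known. Named were the 10 genes, in each comparison up to 10 called rises and 10 called falls of the matrix lists, the 2 highest genes per list, and the 5 genes most like the collagens and Sparc; other genes named were chosen after their values were seen. Not every gene the rule picks is reported here. Read strand is not stated, so Ogn, Omd, Aspn and Ecm2, which overlap Cenpp on the other strand, are uncertain. Alternatives were a pseudocount of 0.1, no filter, deposited TPM, median-of-ratios scaling, other libraries in the fit, the replicate block and each library left out. Tables used pandas 2.3.3 with numpy 2.4.6 in Python 3.11.15, and figures matplotlib 3.10.9.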

Additional observations from a re-analysis of the deposited data

How the results depend on the processing

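No value of the 10 genes turned its call round under any alternative run, and 0 of the 10 were called in KOEmbryo over controlEmbryo under all 11 alternatives. The number of the 10 called ran from 3 to 8 in KOArrest over controlEmbryo (6 as reported), 5 to 8 in KOArrest over KOEmbryo (8), 0 to 2 in KDES over controlES (2) and 5 to 8 in controlEmbryo over controlES (7).

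Genes called in KOEmbryo over controlEmbryo numbered 750, against 269 with no filter, 228 with only those 2 groups, 76 with the replicate block and 87 to 1817 with a library left out. The 4 other matrix genes called there became 1 with a pseudocount of 0.1, 2 with median-of-ratios scaling, 0 with no filter, with only the 2 groups or with the replicate block, and 0 to 7 with a library left out. In KOArrest over controlEmbryo 2976 genes became 1965 with the replicate block and 1983 to 3636 with a library left out, and the 17 other matrix genes became 9 with the replicate block and 9 to 20 with a library left out. In KOArrest over KOEmbryo 1012 genes became 456 with no filter, 2030 with only the 2 groups, 550 with the replicate block and 285 to 742 with a library left out, and the 9 other matrix genes became 1, 17, 3 and 1 to 5, and 14 with TPM. In KDES over controlES 764 genes became 313 with no filter, 93 with all 12 libraries in 1 fit, 26 with the replicate block and 13 to 686 with a library left out, and the 21 other matrix genes became 9, 1, 0 and 0 to 12. In controlEmbryo over controlES 7721 genes and 107 other matrix genes kept within 1.5 times of these counts. The cause of these changes was not tested, beyond the fewer libraries in some fits; a lone library left in a group was assumed to vary like the other groups.

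Scaling moved the split of calls. In KOEmbryo over controlEmbryo 76.4% of calls were higher, against 35.6% with median-of-ratios scaling. In KOArrest over controlEmbryo 64.9% were higher, against 50.6% with TPM and 45.01% with median-of-ratios scaling, and in KOArrest over KOEmbryo 57.4%, against 29.3% with TPM. In KDES over controlES 41.6% were higher, against 55.1% with median-of-ratios scaling, and in controlEmbryo over controlES 23.6%, against 36.8%. Median-of-ratios scaling gave a median over all genes of -0.04 (log2) in KOEmbryo over controlEmbryo and 0.03 in KOArrest over controlEmbryo, against 0.31 and 0.45 as reported, and of -0.45 against -1.01 in controlEmbryo over controlES. Libraries of 1 number did not deviate together, with r of -0.11 to 0.02 in each comparison, so the block pairs numbers that may mean nothing. Read numbers are unknown, so how far a value listed at 0 lies under detection cannot be stated.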
